A study of Mus musculus with 12 samples.

Results

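The genes described here are 8 genes of cardiac calcium handling and electrical coupling: Ryr2, Casq2, Atp2a2, Pln, Slc8a1, Cacna1c, Gja1 and Gja5, of 21896 protein-coding genes in the annotation. They were chosen by name and not by their signal, though with earlier results of these data known. A locus was the gene body with 50000 bp on each side (mm10), and the 8 loci together held 156 of the 94481 H3K27ac regions and 4 of the 2605 GLI1 sites of the series.

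In a heart muscle cell, an action potential opens L-type calcium channels in the surface membrane, and the calcium that enters makes ryanodine receptors release far more calcium from the sarcoplasmic reticulum, where calsequestrin buffers the store. Relaxation follows when the pump SERCA2, held back by phospholamban, returns calcium to the store and the sodium-calcium exchanger moves calcium out of the cell. Connexins form the gap junction channels through which the action potential spreads from cell to cell. H3K27ac, acetylation of histone H3 at lysine 27, marks active promoters and enhancers, and GLI1 is a transcription factor of the Hedgehog pathway.

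Mouse embryonic stem cells of the single line GLI1-FTA (strain A2Lox.cre) were differentiated into cardiac progenitor cells, and chromatin was taken on day 6. The dox group received 500 ng/ml doxycycline for 24 hours from day 5 to express tagged GLI1, and the control group was the same line left untreated. The series has 12 samples in 6 groups of 2 (H3K27ac, GLI1 pulldown and input, from dox and from control cells), and the 6 samples used here stand behind 3 lists, each pooled by the authors over 2 samples: H3K27ac peaks of control cells, H3K27ac peaks of dox cells, and GLI1 sites of dox cells. Doxycycline given to cells without the GLI1 cassette was not among the groups, so the drug and the factor cannot be told apart. The labels name no sort of the cultures, and in such bulk samples fewer cells of a type and less acetylation per cell cannot be told apart.

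Each H3K27ac peak carries the authors' fold enrichment, the pileup of reads at its summit over a local background. Whether that background came from the input samples is not given in the sources used here. The control list held 67463 intervals (59.9 Mb) and the dox list 76437 (66.0 Mb). The lists do not give library depth, but the uniform background recovered from the deposited values was 2.83 reads for the control and 3.63 for the dox list, a ratio of 1.28. Intervals of the lists overlapping by 1 bp or more were joined into a region, called shared when both lists contributed and control-only or dox-only otherwise. The log2 ratio of a shared region is the highest dox over the highest control fold enrichment, set relative to the median of all shared regions (−0.13), so 0 stands for the typical shared region. A region is called higher or lower where this ratio is at least 1 in size. With 1 pooled list per condition no spread between replicates exists and no test was possible. The 95% intervals given cover the counting error of the summit pileups only.

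Summed over the 8 loci, untreated cells carried more acetylated sequence than dox cells. Control intervals covered 111733 bp and dox intervals 90383 bp, while over the whole genome the dox list covered more. The control excess lay mostly at Cacna1c (43437 and 25862 bp) and Ryr2 (21033 and 8416 bp), and was smaller at Pln, Slc8a1 and Gja1. Dox intervals covered more at Casq2 (13480 and 31691 bp), Atp2a2 (5065 and 6897 bp) and, by little, Gja5 (2782 and 2827 bp). Of the 156 regions, 62 (39.7%) were control-only, 47 (30.1%) dox-only and 47 (30.1%) shared. Over all regions of the genome the shares were 27.1% control-only, 35.5% dox-only and 37.5% shared. Control-only regions outnumbered dox-only ones in 6 loci (Ryr2, Pln, Slc8a1, Cacna1c, Gja1 and Gja5). This was so at 33.7% of the protein-coding loci that held a region. Dox-only regions outnumbered control-only ones at Casq2 and Atp2a2 (47.0% of such loci). These shares were not matched for the number of regions in a locus. The balance rested on single loci. Without the Cacna1c locus the counts were 36 control-only and 38 dox-only, and without the Casq2 locus 61 and 26.

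**Figure D1:**
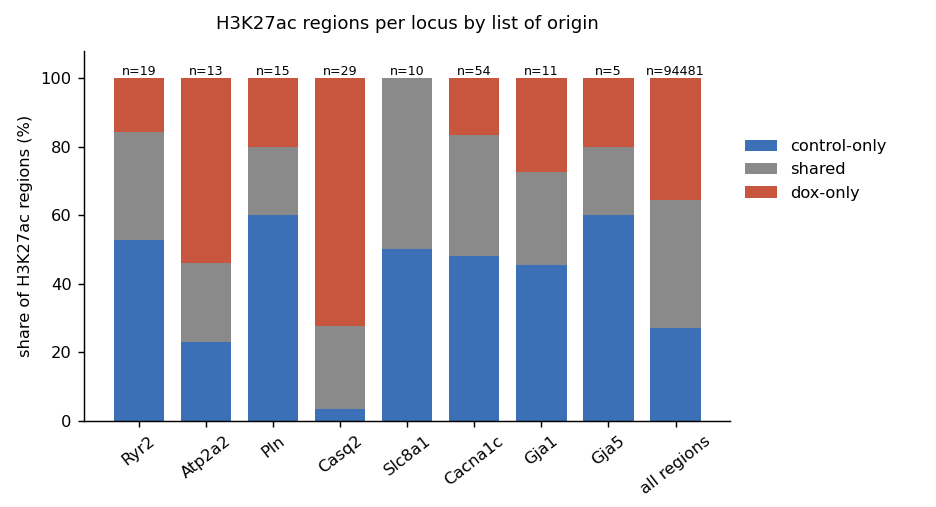
Share of H3K27ac regions (%) that were control-only, shared or dox-only in each of the 8 loci and over all regions of the genome, with the number of regions above each bar. Dox-only regions make up 21 of the 29 regions at Casq2 and 7 of the 13 at Atp2a2, and Slc8a1 has none.

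Among the 47 shared regions, 9 were lower in dox cells (19.1%, against 8.31% of all shared regions) and 3 were higher (6.38%, against 6.78%). The lower regions lay in the Ryr2 locus (4), the Cacna1c locus (4) and at the Slc8a1 start (1). The counting interval of each of the 9 lay below 0. As the 9 were picked by ratios from the same summits, these intervals are no separate support. None of the 9 held a GLI1 site, and of all lower regions in the genome 0.272% did. The median log2 ratio of the 47 was −0.11, with 31 below 0 and 16 above. Choosing regions by a high control value favours low ratios and choosing them by a high dox value favours high ones, so such counts are given only beside those of the genome. Of the 23 shared regions with a control fold enrichment of at least 10, 20 had a ratio below 0 (57.9% of such regions in the genome) and 9 were lower (39.1%, against 15.6%). Of the 12 with a dox fold enrichment of at least 10, 2 were higher (13.0% in the genome) and 0 lower (1.38%). Without the Cacna1c locus, 5 lower and 1 higher region remained among 28 shared regions.

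A region seen in 1 list only has no ratio, but the weakest summits reported on the uniform background had a fold enrichment of 2.60 in the control and 2.59 in the dox list, which bounds the missing value where that background applies. By this bound 6 of the 62 control-only regions were lower (9.68%, against 10.0% of all control-only regions) and 9 of the 47 dox-only regions higher (19.1%, against 19.5%). Most regions of 1 list were weak and short. Control-only regions had a median fold enrichment of 3.75 and a median width of 292 bp (316 bp over the genome), dox-only regions 3.46 and 333 bp (343 bp), and shared regions were 1506 bp wide (1204 bp).

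**Figure D2:**
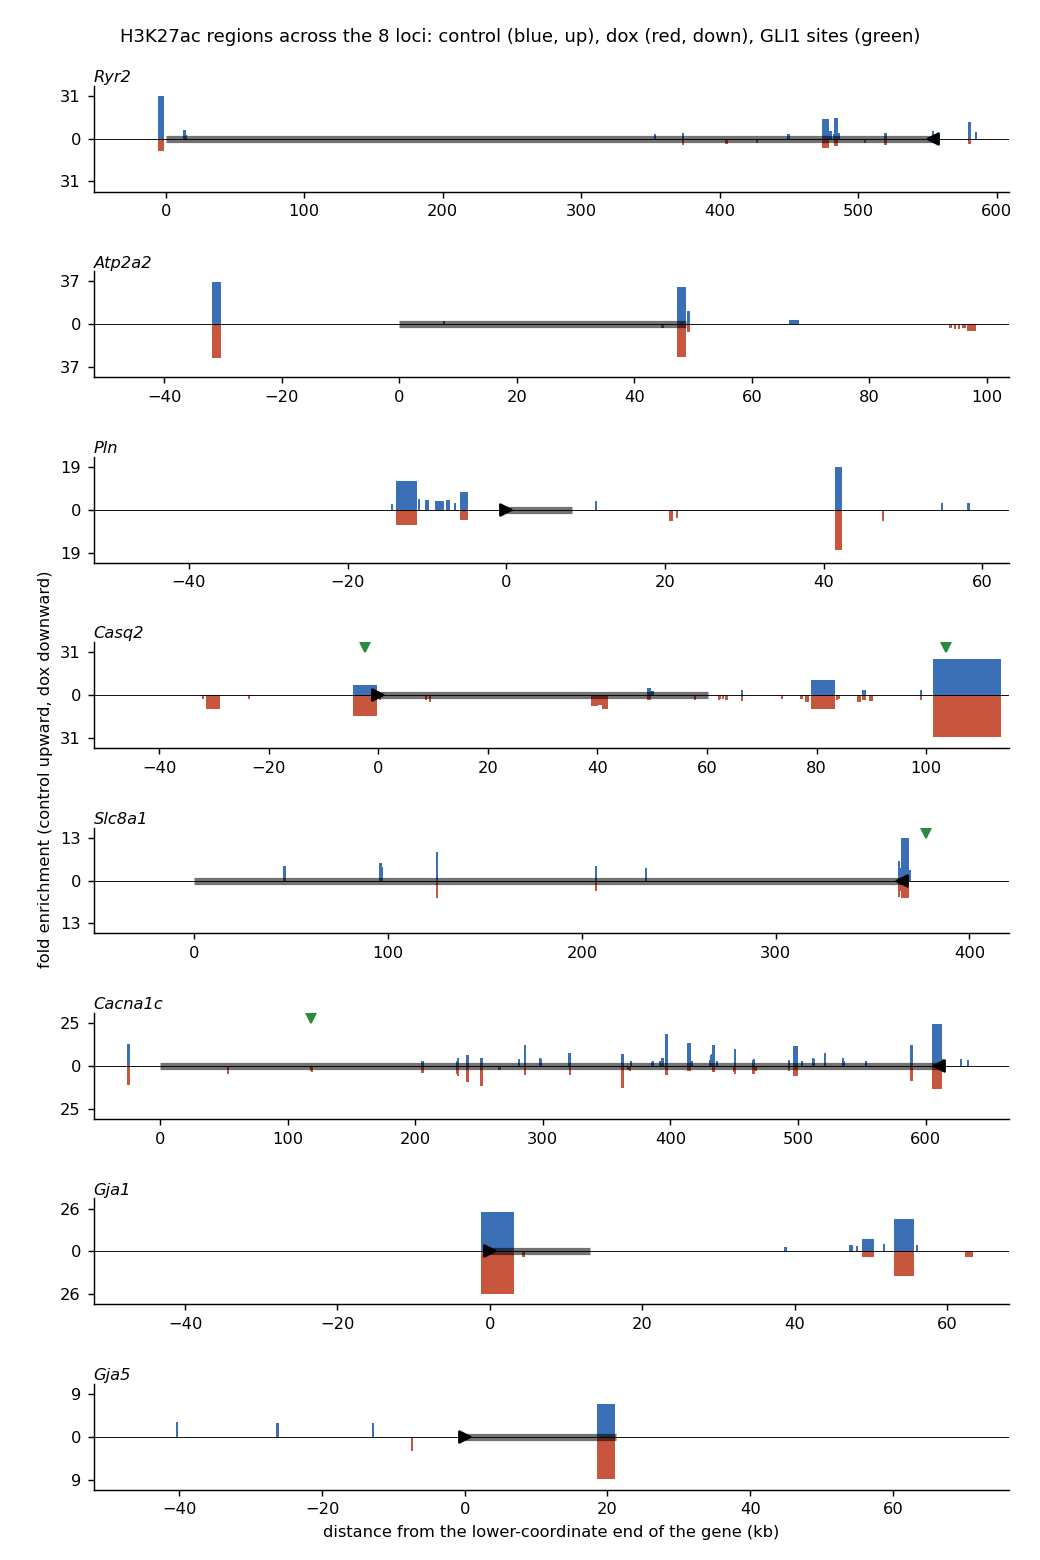
H3K27ac regions along the 8 loci, with position in kb from the lower-coordinate end of each gene on the horizontal axis and the highest fold enrichment of the region on the vertical axis, control upward in blue and dox downward in red. The grey bar is the gene, the arrowhead its annotated start where known, and green triangles are GLI1 sites; narrow regions are drawn wider so that they can be seen. The tall control bars at Ryr2 and in the middle of Cacna1c face short dox bars, and those at the ends of Atp2a2 and Gja1 face tall ones.

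Ryr2 encodes the cardiac ryanodine receptor, the release channel of the sarcoplasmic reticulum (chromosome 13, 11553099 to 12106945, minus strand). Of its 19 regions, 10 were control-only, 3 dox-only and 6 shared, and acetylated sequence came to 21033 bp in untreated and 8416 bp in dox cells (40.0%). The median log2 ratio of the shared regions was −1.23. Among protein-coding loci with at least 3 shared regions, 0.924% had a median of −1 or less, and Ryr2 was the only one of the 7 member loci with that many shared regions to do so.

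The strongest Ryr2 region lay just past the end of the gene (chr13:11547791-11551753, 1346 bp outside it). Its fold enrichment was 30.8 in untreated (117 reads at the summit) and 9.07 in dox cells (41 reads), with a log2 ratio of −1.63 (−2.20 to −1.13). Inside the gene, 74854 and 68506 bp from the start, 2 broad neighbouring regions stood at 14.6 and 15.0 in control and at 6.39 and 5.19 in dox cells, with ratios of −1.06 (−1.75 to −0.44) and −1.40 (−2.20 to −0.73). A region 25401 bp upstream of the start (chr13:12132346-12134708) had 12.0 in untreated and 4.13 in dox cells, a ratio of −1.41 (−2.28 to −0.66). These were the 4 lower regions of the locus, 1 past the gene, 2 within it and 1 upstream.

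The remaining shared regions of Ryr2 were weak in both lists and did not share this direction. At chr13:11926135-11927751 fold enrichment was 4.44 in untreated and 4.75 in dox cells, and at chr13:12072041-12073025 it was 4.24 and 4.54, each with a ratio of 0.23 and an interval reaching across 0. At the annotated start itself only untreated cells had a region (chr13:12106417-12106889, fold enrichment 6.01), for which the bound was −1.08. The strongest control-only region, far inside the gene (chr13:11565971-11566347), had 6.53, and the strongest dox-only region (chr13:11957317-11957535) had 3.92. The nearest GLI1 site was 453 kb from the gene.

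The bases just upstream of the Ryr2 start are shown because the region that lay 56 bp from that start was in the control list alone. The 250 bases (chr13:12106946-12107195, minus strand; RefSeq, GRCm38.p6) are written 5′ to 3′ in lower case, with the match to the core of the Gli motif in capitals.
Ryr2: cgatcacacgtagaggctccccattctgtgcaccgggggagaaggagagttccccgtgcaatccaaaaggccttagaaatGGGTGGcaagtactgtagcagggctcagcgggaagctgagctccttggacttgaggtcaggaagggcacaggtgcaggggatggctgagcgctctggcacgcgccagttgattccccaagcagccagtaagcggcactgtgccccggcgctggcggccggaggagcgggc
The Gli motif was searched as GACCACCCA and its core as CCACCC, both on both strands. The core was found 1 time, 170 bases before the start, and the full motif was not found with up to 1 mismatch. Of 32817 promoters in the table, 28.1% held the core in this window and 5.80% the full motif with up to 1 mismatch, so the core is a common string.

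Casq2 encodes cardiac calsequestrin, the calcium-binding protein inside the sarcoplasmic reticulum (chromosome 3, 102086415 to 102146514, plus strand). More of its locus was acetylated in dox than in untreated cells. Of its 29 regions, 21 were dox-only, 7 shared and 1 control-only, and acetylated sequence came to 13480 bp in untreated and 31691 bp in dox cells (235%). At least 3 dox-only regions for each control-only one were found at 20.7% of the protein-coding loci that held a region. Control intervals numbered 16 and dox intervals 29.

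The region that ends 225 bp before the Casq2 start (chr3:102081795-102086190) had a fold enrichment of 7.48 in untreated (39 reads) and 15.6 in dox cells (71 reads). Its log2 ratio was 1.19 (0.62 to 1.81). At gene ends acetylated in both lists, a ratio of at least 1 was found for 3.78% of genes, and Casq2 was the only member among them. In control cells the stretch was broken into 4 intervals and in dox cells it was 1 interval of 4396 bp. A GLI1 site lay within it, 2267 bp before the start. This site had a −log10 q of 16.1, and 17.6% of sites had a lower one.

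Inside the gene, beginning 38906, 40179 and 40903 bp from the start, 3 dox-only regions followed one another with fold enrichments of 8.21, 7.08 and 9.94 and bounds of 1.79, 1.58 and 2.06. Upstream, 28866 bp from the start, a dox-only region of 2535 bp (chr3:102055015-102057549) also reached 9.94, with a bound of 2.06. These were the strongest of the dox-only regions in all 8 loci. None of the 21 dox-only regions of the locus held a GLI1 site (2.91% of all dox-only regions did), and 7 of them lay at or inside Casq2 and 7 at or inside the neighbouring gene Vangl1. Of the 7 shared regions, 1 was higher and 3 had a ratio below 0. The ratios ran from −0.29 at chr3:102135435-102136208, where fold enrichment was 4.96 in untreated and 3.71 in dox cells, to 1.19, with a median of 0.18. The single control-only region had 3.30.

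The bases upstream of the Casq2 start are shown because this is the member promoter next to a GLI1 site with higher acetylation in dox cells (chr3:102086165-102086414, plus strand; RefSeq, GRCm38.p6). Capitals mark CTAAAAAT, the core of the binding motif of the MEF2 muscle factors, on either strand.
Casq2: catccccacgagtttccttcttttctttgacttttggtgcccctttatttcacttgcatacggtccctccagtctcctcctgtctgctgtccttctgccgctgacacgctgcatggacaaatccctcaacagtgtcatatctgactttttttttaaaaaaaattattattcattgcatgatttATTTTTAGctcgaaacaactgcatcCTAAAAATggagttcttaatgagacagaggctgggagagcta
The 2 matches stood 67 and 42 bases before the start. This string was searched on both strands only after the sequence had been seen, and 1.01% of all promoters held it in this window. Neither GACCACCCA with up to 1 mismatch nor CCACCC was in these bases, and the GLI1 site itself lay outside them.

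The other Casq2 GLI1 site (chr3:102190114-102190214) lay 103699 bp beyond the start, inside Vangl1, a planar cell polarity gene, in a region of 12499 bp. Its −log10 q was 64.3, and 77.4% of sites had a lower one. The region as a whole had 26.1 in untreated and 30.8 in dox cells, with a log2 ratio of 0.37 (0.01 to 0.74). These highest values came from different places. The strongest dox summit stood within 1000 bp of the GLI1 site, where the strongest control summit had 4.87, a ratio of 2.80 (2.17 to 3.63). This measure within 1000 bp of a site was not planned, while that of the whole region was. The strongest control summit was 3921 bp from the site, and a dox summit 3844 bp from the site had 27.2. Of the 878 GLI1 sites with summits within 1000 bp in both lists, 95.3% had a lower ratio than this one, 53.2% had a ratio of at least 1, and the median was 1.10. The site near the start had 7.05 in untreated and 15.6 in dox cells on the same measure, a ratio of 1.27 (0.64 to 2.02), and 56.2% of sites were lower.

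**Figure D3:**
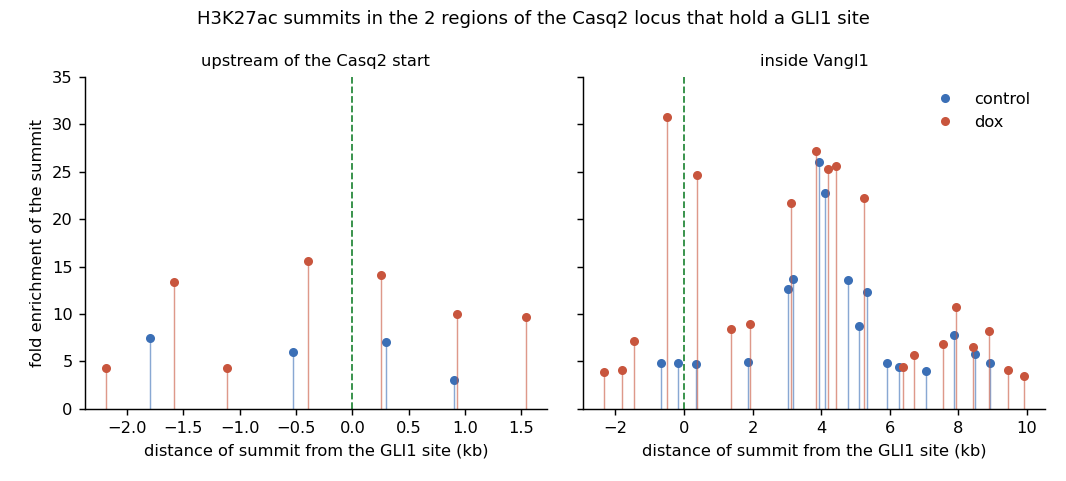
Fold enrichment of every H3K27ac summit (control blue, dox red) in the 2 regions of the Casq2 locus that hold a GLI1 site, by distance in kb from the site (dashed line). In the region inside Vangl1 the dox summits beside the site reach 30.8 where control summits stay near 4.87, and farther off the strongest control summit, 3921 bp from the site, reaches 26.1 beside a dox summit of 27.2.

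Atp2a2 encodes SERCA2, the calcium pump of the sarcoplasmic reticulum (chromosome 5, 122453513 to 122502225). It was strongly acetylated in both lists. The region at the gene's higher-coordinate end (chr5:122500853-122502294) had a fold enrichment of 32.4 in untreated (124 reads) and 28.7 in dox cells (136 reads), with a log2 ratio of −0.04 (−0.40 to 0.32). The region next to it had 11.2 and 7.08, a ratio of −0.53 (−1.23 to 0.15), the lowest of the locus.

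The strongest region of the Atp2a2 locus belonged to a neighbour. It lay at an end of Anapc7, which encodes a subunit of the anaphase-promoting complex, with 36.6 in untreated and 29.3 in dox cells and a ratio of −0.19 (−0.53 to 0.16). Of the 7 dox-only regions, 6 lay side by side inside Ift81, a gene of ciliary transport, and the strongest of them (chr5:122550055-122551713) had 6.27, with a bound of 1.40. The strongest control-only region had 3.99. The nearest GLI1 site was 199 kb away.

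Pln encodes phospholamban, the inhibitor of SERCA2 (chromosome 10, 53337686 to 53345999, plus strand), a short gene within the longer gene Cep85l. Neither list had a region within 1000 bp of an end of Pln, as at 46.6% of the genes analysed. Acetylation lay farther off instead, both upstream and downstream of the gene. A region 11249 bp before the start (chr10:53323768-53326437) had 12.5 in untreated and 6.71 in dox cells, with a log2 ratio of −0.77 (−1.44 to −0.13), and one 4787 bp before the start (chr10:53331814-53332899) had 7.98 and 4.54, a ratio of −0.68 (−1.59 to 0.14). Between and beside them stood 6 control-only regions, with fold enrichments of up to 4.70, and no dox-only region.

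Acetylated sequence in the Pln locus came to 7941 bp in untreated and 4281 bp in dox cells (53.9%). The strongest region of the locus, at the end of Cep85l, had 18.7 and 17.7, a ratio of 0.05 (−0.42 to 0.53). The 3 dox-only regions lay beyond the gene, and the stronger ones had 5.12 and 4.92, with bounds of 1.11 and 1.05. As 12 of the 15 regions lie within Cep85l, position alone does not tie them to Pln.

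**Figure D4:**
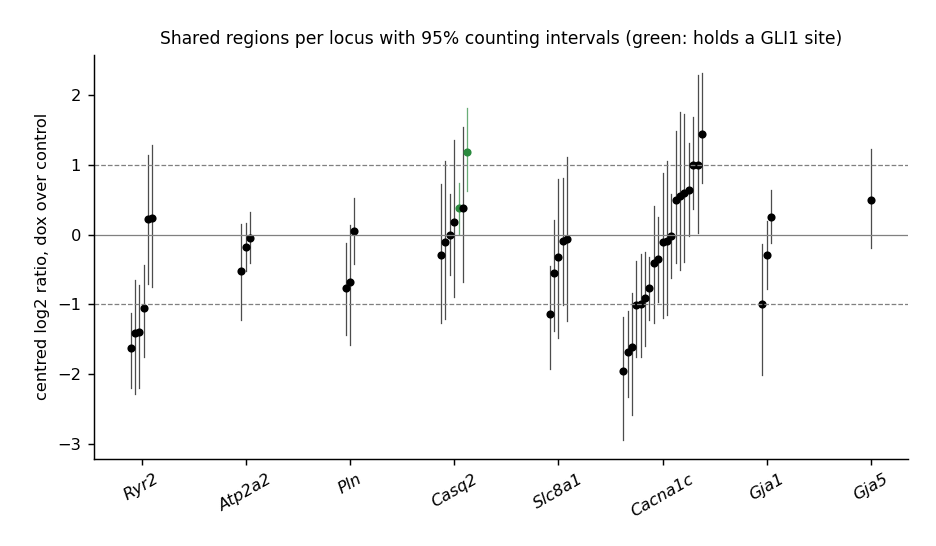
Log2 ratio of dox over control fold enrichment for the 47 shared regions, by locus, relative to the median of all shared regions, with 95% counting intervals; dashed lines mark −1 and 1 and green points hold a GLI1 site. Of the 6 points of Ryr2, 4 lie below −1, while the 19 points of Cacna1c run from −1.95 to 1.44.

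Slc8a1 encodes the sodium-calcium exchanger of heart muscle (chromosome 17, 81373105 to 81738387, minus strand). Its 10 regions were shared (5) or control-only (5), with no dox-only region. Acetylated sequence came to 8273 bp in untreated and 3809 bp in dox cells (46.0%). At the start (chr17:81737514-81741728) fold enrichment was 13.0 in untreated (51 reads) and 5.36 in dox cells (25 reads), with a log2 ratio of −1.14 (−1.92 to −0.45). A ratio of −1 or less at a gene end was found for 2.05% of genes acetylated there in both lists, and Slc8a1 was the only member among them with regions up to 1000 bp from the ends.

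The other shared regions of Slc8a1 were weaker and their intervals reached across 0. Inside the gene, 239417 bp from the start, fold enrichment was 8.68 in untreated and 5.40 in dox cells, a ratio of −0.55 (−1.38 to 0.21). The ratios of the rest were −0.32, −0.10 and −0.06. The strongest control-only region (chr17:81468533-81468970) had 5.22 and a bound of −0.88. A GLI1 site lay 12379 bp upstream of the start (chr17:81750766-81750866) with a −log10 q of 13.4, and 11.0% of sites had a lower one. It was in neither H3K27ac list, like 24.5% of sites. The nearest control interval was 8480 bp from it and the nearest dox interval 9370 bp.

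The bases upstream of the Slc8a1 start are shown because Slc8a1 alone had a ratio of −1 or less within 1000 bp of its ends. On that measure Cacna1c had −0.76, and Ryr2 had a region in untreated cells alone. The core CCACCC is again in capitals as it reads on this strand (chr17:81738388-81738637, minus strand; RefSeq, GRCm38.p6).
Slc8a1: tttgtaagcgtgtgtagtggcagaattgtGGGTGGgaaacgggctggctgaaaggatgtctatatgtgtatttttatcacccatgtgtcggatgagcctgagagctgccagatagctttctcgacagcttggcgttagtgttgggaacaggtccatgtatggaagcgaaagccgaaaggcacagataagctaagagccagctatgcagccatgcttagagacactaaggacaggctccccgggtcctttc
The match stood 221 bases before the start.

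Cacna1c encodes the pore-forming subunit of the L-type calcium channel (chromosome 6, 118587240 to 119197384, minus strand). It held 54 regions, more than any other member, of which 26 were control-only, 9 dox-only and 19 shared. Acetylated sequence came to 43437 bp in untreated and 25862 bp in dox cells (59.5%). The ratios of its shared regions ran from −1.95 to 1.44, with a median of −0.11, so lower and higher regions stood within 1 gene. With peaks of a −log10 q under 10 left out, the median was −0.81.

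The start of Cacna1c was the strongest region in control cells (chr6:119192391-119199786), with a fold enrichment of 24.6 in untreated (104 reads) and 13.2 in dox cells (74 reads). Its log2 ratio was −0.76 (−1.22 to −0.32). In control cells it was 1 interval of 7396 bp, and in dox cells 3 intervals. This region also overlaps Dcp1b, an mRNA decapping gene. The annotated start at 119108495 had a control-only region (chr6:119107448-119109238) with 7.49 and a bound of −1.40. The one at 118757974 had no region in either list.

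The lower regions clustered in the first part of the gene. Between 175100 and 212102 bp from the start lay 3 of them, 1 with the lowest ratio of all 47 shared regions. At chr6:118999962-119003100 fold enrichment was 13.4 in untreated and 3.15 in dox cells, a ratio of −1.95 (−2.95 to −1.18). At chr6:118982860-118985282 it was 18.5 and 5.27, a ratio of −1.68 (−2.33 to −1.10). At chr6:119019819-119022284 it was 12.4 and 3.67, a ratio of −1.62 (−2.59 to −0.84), and 2 control-only regions beside it had 7.04 and 6.33. The strongest control-only region of all 8 loci, with 7.57 and a bound of −1.42, stood farther in at chr6:118907229-118907650.

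Higher regions lay deeper in the gene. At chr6:118838249-118840748, 356636 bp from the start, fold enrichment was 4.69 in untreated and 11.7 in dox cells, a ratio of 1.44 (0.74 to 2.32). A weaker one at chr6:118819321-118819777 had 2.72 and 4.96, a ratio of 1.00 (0.02 to 2.29). Just under the threshold, chr6:118948487-118951111 had 7.14 and 13.0, a ratio of 0.99 (0.36 to 1.69). In the 305 kb nearer the start, 10 of 12 shared regions were below 0, with a median of −0.58, and 20 control-only regions stood beside 4 dox-only ones. In the other 305 kb, 5 of 6 shared regions were above 0, with a median of 0.62, and 3 control-only regions stood beside 5 dox-only ones. The exception there, 323125 bp from the start, had 12.0 and 5.44, a ratio of −1.01 (−1.76 to −0.38). This division of the gene was made after the ratios had been seen.

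A GLI1 site lay in the deeper part of Cacna1c (chr6:118705260-118705360, −log10 q 26.7), in neither list. The nearest dox interval began 54 bp away, a dox-only region with a fold enrichment of 3.74, and the nearest control interval was 86800 bp away. The dox-only region of the highest fold enrichment in the gene (chr6:118639470-118639957) had 4.75.

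**Figure D5:**
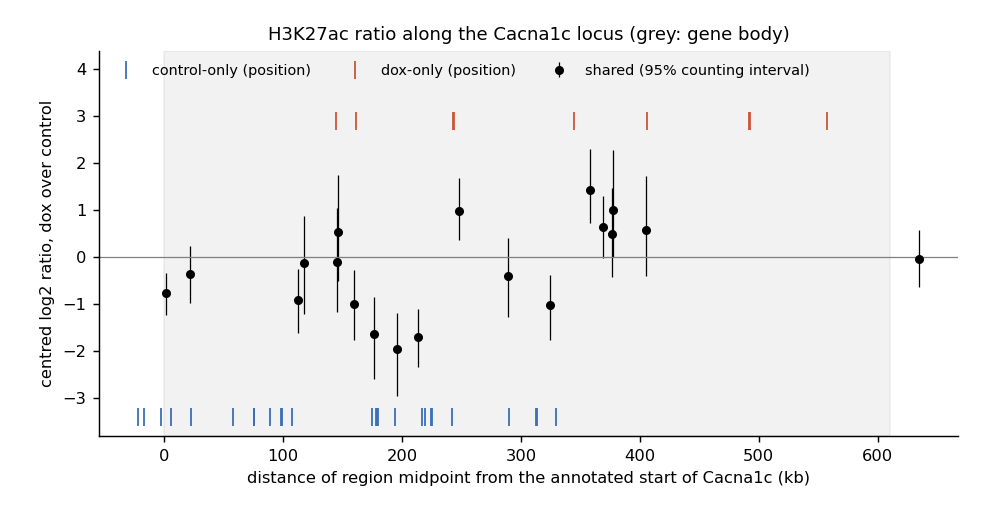
Log2 ratio of the shared regions of the Cacna1c locus with 95% counting intervals, by distance of the region's midpoint from the start of the gene in kb; blue and red ticks give the positions of control-only and dox-only regions and the grey band is the gene. The lowest ratio, −1.95, lies closer to the start than the highest, 1.44.

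Gja1 encodes connexin 43, the main gap junction protein of the working ventricle (chromosome 10, 56377300 to 56390419, plus strand). At its start (chr10:56376183-56380494) acetylation was strong in both lists, with a fold enrichment of 23.8 in untreated (116 reads) and 25.9 in dox cells (119 reads) and a log2 ratio of 0.26 (−0.13 to 0.64). Beyond the gene both shared regions had ratios below 0. The region at chr10:56430417-56433023 had 19.9 and 14.9, a ratio of −0.29 (−0.77 to 0.19), and the one at chr10:56426129-56427790 had 7.53 and 3.46, a ratio of −0.99 (−2.02 to −0.14). All 5 control-only regions lay in the same downstream stretch, with fold enrichments of up to 4.50. The 3 dox-only regions had at most 3.51. The nearest GLI1 site was 688 kb away.

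Gja5 encodes connexin 40 of the atria and the conduction system (chromosome 3, 97032402 to 97053634, plus strand) and held 5 regions, the fewest of the members. At its annotated start neither list had a region. The 1 shared region lay at its far end (chr3:97050960-97053505), with a fold enrichment of 6.86 in untreated and 8.86 in dox cells and a ratio of 0.50 (−0.20 to 1.23). It was 3 intervals in untreated and 1 in dox cells. The 3 control-only regions (up to 3.05) and the dox-only region (3.02) were near the weakest values reported, and the nearest GLI1 site was 219 kb away.

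The Gja5 promoter is shown as the one with the most matches to the core CCACCC among the members (chr3:97032152-97032401, plus strand; RefSeq, GRCm38.p6), though no acetylation was reported there in either list.
Gja5: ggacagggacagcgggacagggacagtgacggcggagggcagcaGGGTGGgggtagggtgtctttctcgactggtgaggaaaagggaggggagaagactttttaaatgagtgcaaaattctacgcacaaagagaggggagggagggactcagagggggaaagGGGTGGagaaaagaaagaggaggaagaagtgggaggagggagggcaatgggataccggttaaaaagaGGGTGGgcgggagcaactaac
The 3 matches, in capitals as they read on this strand, stood 206, 88 and 21 bases before the start. Promoter sequences were at hand for 7 of the 8 members. The full motif GACCACCCA was in none of them with up to 1 mismatch, and the core in those of Gja5, Ryr2 and Slc8a1 only.

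Put side by side at gene ends, 6 members were acetylated in both lists (48.2% of genes), Ryr2 in untreated cells alone (2.23%), Pln in neither, and no member in dox cells alone (2.98%). This depends on the window of 1000 bp. With regions up to 5000 bp from the gene ends all 8 members were acetylated in both lists (56.1% of genes): Ryr2 through the region past its end, with −1.63, and Pln through the upstream region with −0.68. Ryr2 and Slc8a1 then both had a ratio of −1 or less (2.68% of genes), and the other 6 members kept their values. Within 1000 bp the log2 ratios in order were 1.19 at Casq2, 0.50 at Gja5, 0.26 at Gja1, −0.04 at Atp2a2, −0.76 at Cacna1c and −1.14 at Slc8a1, beside a median of 0.14 over all genes. The counting intervals of neighbours in this order overlapped. Those of Casq2 and Gja1 met only in a narrow range (0.62 to 0.64), and those of Slc8a1 and Cacna1c lay below that of Gja1. GLI1 sites lay in 3 of the 8 loci (Casq2, Slc8a1 and Cacna1c), against 13.5% of protein-coding loci. That share was not matched for length, and a longer locus has more room for a site. The Casq2, Slc8a1 and Cacna1c loci span 160, 465 and 710 kb, and the Ryr2 locus of 654 kb held none. Both Casq2 sites lay in dox intervals (75.0% of all sites did) and in control intervals (25.0%), in regions of which 1 was higher (51.2% of shared regions with a site were). The Slc8a1 and Cacna1c sites lay in neither.

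The number of intervals in a region differed between the lists too. It rests on the same thresholds as the fold enrichment and is not a separate measure. Of the 47 shared regions, 13 were made of more intervals in dox than in control cells (13.5% of all shared regions) and 7 of more in control cells (12.3%). Of the 9 lower regions, 8 had more intervals in dox cells (37.7% of all lower regions), such as the region past the end of Ryr2 (1 and 2 intervals). The region before Casq2 was of the opposite kind (4 and 1).

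Other genes of the same processes gave a mixed picture at their ends. Of 61 analysed genes in 4 lists, 29 were acetylated in both lists (48.2% of all genes) and 24 in neither (46.6%). In dox cells alone there were 5 (2.98%), and in untreated cells alone 3 (2.23%). Of the 29 in both, 2 were higher (3.78% of all such genes) and 2 lower (2.05%). Their median was −0.02, beside 0.14 over all genes. Of the 20 calcium release genes, 13 were acetylated in both lists (48.2% of all genes) with a median of 0.15. Itpr1, an inositol trisphosphate receptor gene, had 11.6 in untreated and 25.0 in dox cells, a ratio of 1.24. Tecrl had the next highest ratio (0.63). Jph2, whose product holds the surface membrane close to the sarcoplasmic reticulum, had 39.2 and 21.2, a ratio of −0.76, and Casq1, the skeletal muscle calsequestrin gene, had −0.52. Fkbp1b, which encodes a ryanodine receptor binding protein, was in control alone (3.57) and Srl, the sarcalumenin gene, in dox alone (3.95). Several of these values depend on the window. With regions up to 5000 bp from the gene ends, 37 of the 61 genes were acetylated in both lists (56.1% of all genes). Another 2 were in untreated cells alone, 4 in dox cells alone and 18 in neither. Of all 20212 genes, 599 were in untreated cells alone, 827 in dox cells alone and 7446 in neither. Of the 37 genes, 2 were higher and 3 lower, with a median of 0.04. Over all genes, 472 of 11340 were higher and 304 lower, with a median of 0.14. In this window Tecrl stood at −0.52 and Casq1 at 0.11, and Fkbp1b and Srl were in both lists with 0.52 and 0.57.

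Of the 9 analysed calcium entry genes, Cacnb2, the gene of an auxiliary subunit of the L-type channel, had 14.5 in untreated and 4.13 in dox cells, a ratio of −1.68. The channel genes Cacna1s (7.74) and Cacna1d (3.52) had a region in control alone, and the T-type channel gene Cacna1g (4.54) and Rrad, the gene of a GTPase that restrains calcium channels (3.18), in dox alone. Of the 10 calcium removal genes, Atp2b4, a plasma membrane calcium pump gene, had 6.98 and 3.07, a ratio of −1.05. Calr, the calreticulin gene, had −0.70, Mcu, the mitochondrial calcium uniporter gene, 0.08 and the pump gene Atp2b1 0.04, and the exchanger genes Slc8a3 (4.16) and Slc8b1 (4.75) had a region in dox alone. With regions up to 5000 bp from the ends, Slc8b1 was in both lists with 9.56 and 8.30, a ratio of −0.07, and so was Cacna1g with 0.71. The exchanger gene Slc8a2, in neither list within 1000 bp, then had 8.62 and 2.72, a ratio of −1.53.

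Of 22 genes of cell junctions and conduction, 10 were acetylated in both lists (48.2% of all genes) and 12 in neither (46.6%), with a median of −0.41. The connexin 45 gene Gjc1 had 13.5 in untreated and 25.1 in dox cells, a ratio of 1.02, and the desmosome gene Dsp had 0.85 (0.05 with regions up to 5000 bp from its ends). Popdc2, a gene of a cyclic AMP binding membrane protein, had 52.4 and 30.9, a ratio of −0.63, and the desmosome gene Pkp2 had −0.61.

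Marker genes were read on the same measure to place the members beside the cell types. Of 12 cardiac markers, 5 were acetylated at an end in both lists (48.2% of all genes) and 2 in untreated cells alone (2.23%). The other 5, Tbx5, Gata4, Mef2c, Nkx2-5 and Myh6, were in neither (46.6%). Of the 5 in both lists, 4 were below 0, with a list median of −0.74, beside 0.14 over all genes. Of all genes in both lists, 2.05% had a ratio of −1 or less. Tnnt2, the cardiac troponin T gene, had −1.35, Hand2, a cardiac transcription factor gene, had −1.05, and Isl1, a progenitor factor gene, had 0.19. Of 6 endothelial markers, 3 were in both lists with a median of 0.54 and 3 in dox alone (2.98% of all genes). These 3 were Kdr (2.82), Cdh5 (3.13) and Tal1 (4.75), of which Kdr and Cdh5 were near the weakest values reported. Of 5 neural markers, 1 (Sox2) was in both lists and 4 in neither, and of 5 endoderm markers 1 was in both (−1.19), 1 in dox alone (Foxa2, with a fold enrichment of 34.0) and 3 in neither. Both analysed smooth muscle markers were in both lists (median −0.61), and of 4 pluripotency markers 1 was in both (Nanog, −0.57) and 3 in neither. With regions up to 5000 bp from the ends, 7 cardiac markers were acetylated in both lists (56.1% of all genes), with a median of −0.59. Another 2 were in untreated cells alone (599 of all 20212 genes) and 3 in neither. Nkx2-5 was then in both lists with 0.08, and Gata4 in untreated cells alone (5.03). Of the endothelial markers, 4 were in both with a median of 0.29 and 2 in dox alone (827 of all 20212 genes). Those 2 were Kdr (2.82) and Cdh5 (8.64), and Tal1 was in both with 0.37. The endoderm gene in both lists then had −0.63, and Afp (7.08) joined Foxa2 in dox alone. The pluripotency genes Pou5f1 and Esrrb were in dox alone too. The part of a change in cell makeup in the member values was not tested.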

How the data were processed

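The build mm10 and the tools Bowtie2 2.3.2, SAMtools 1.5 and MACS2 2.1.1 are named in the submitters' processing notes, and what each tool did is not given in the sources used here. Each of the 3 deposited lists combines the 2 replicates of a group and leaves out blacklisted and mitochondrial peaks, per the names of the deposited lists. In both H3K27ac lists the authors deposited a fold enrichment (a ratio) for each summit, its −log10 p and −log10 q, and an integer score that equals 10 times the −log10 q without decimals. The lowest −log10 q was 1.31 in control and 1.33 in dox cells. The GLI1 list consists of deposited windows of 101 bp with a −log10 q, kept where replicated and holding a Gli motif per its name. The control GLI1 pulldown and the inputs were not analysed here.

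From these lists, regions, classes and ratios were computed in Python 3.11.15 with pandas 2.3.3, numpy 2.4.6 and scipy 1.17.1, and the scripts were tested on simulated data. For 100% of summits in either list a whole-number pileup was found that gives back the deposited values within 0.01, and counting intervals are exact binomial intervals from these pileups. Of 21896 protein-coding genes (RefSeq, GRCm38.p6, the same assembly as mm10), 1684 with an end in a stretch of skipped peak numbers were left out and 20212 analysed; no skipped number lay in a member locus. A gene end is the 1000 bp on either side of an annotated end. The regions named in each locus are the strongest of each list and class, those with the highest and lowest ratio and those with a GLI1 site. Regions named beyond these, as at Cacna1c, Casq2 and Ryr2, were chosen after their values were seen. Of the other gene lists, genes of a ratio of at least 1 in size, those in 1 list alone, and the 2 highest and 2 lowest are named. Members, lists and rules were chosen with earlier results of these data known. The values of 1 gene of the calcium lists are not reported here, though it is in the counts of its list.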

Additional observations from a re-analysis of the deposited data

How the results depend on the processing

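The 2 H3K27ac lists pool replicates and have no scale in common, so every difference is one between 2 lists and rests on their thresholds. No paired analysis was possible because the lists are pooled over replicates and give no value for a single sample, and for the same reason no replicate could be left out. When weaker peaks were dropped (−log10 q under 10), the loci held 16 control-only, 9 dox-only and 24 shared regions, 1 region was higher, and the Cacna1c median was −0.81 in place of −0.11. With 10000 bp on each side, 26 dox-only regions and 2 GLI1 sites remained, and the Gja1 median was 0.26. Without centring, 1 of the other calcium and conduction genes was higher. Leaving out a locus was added after the data were seen: without Cacna1c there were 36 control-only regions, 1 higher and 5 lower, and without Casq2 26 dox-only regions. The Casq2 site inside Vangl1 had a ratio of 2.80 within 1000 bp, a measure that was not planned, against 0.37 for its whole region. The remaining 53 values of these comparisons and 39 locus medians and the like kept their direction, and counts stayed within 1.5 times. Of the 8 locus medians, the one at Gja1 changed sign and the other 7 kept theirs under these settings. The cause of these shifts was not tested. The protein comparison of Gja1 and Gja5 was not run here.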
